A study of Arabidopsis thaliana with 36 samples.

Results

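The sulfate transporters of Arabidopsis thaliana described here are 10 genes of the SULTR family, 3 of group 1, 2 of group 2, 3 of group 3 and both of group 4. They were picked by gene identifier from the deposited expression table of 33557 genes. The study asked what the deubiquitinating enzyme OTU5 does in root development and in the response of roots to phosphate (Pi) starvation. RNA was compared in 4 groups of 3 libraries each: otu5 mutant roots on low Pi medium, otu5 mutant roots on control medium, wild-type (WT) roots on low Pi medium and WT roots on control medium. All roots were harvested 14 days after germination from seedlings on plates in continuous light, and polyadenylated RNA was sequenced. The labels name the mutant without an allele and the medium without a Pi concentration, and they do not say whether libraries came from separate plates or plants, so the p-values measure the spread between these libraries, which may be technical.

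Sulfate transporters of this family are membrane proteins that carry sulfate together with protons. In roots, high-affinity group 1 transporters take sulfate up from the soil or load it into the phloem, low-affinity group 2 transporters act in the vascular tissue, and group 4 transporters release sulfate from the vacuole. Group 3 is the most varied, with members in the plastid envelope and members that act on transport between root and shoot. Sulfate and Pi nutrition are linked, since plants short of Pi replace part of their phospholipids by a sulfolipid, and PHR1, a central regulator of the Pi starvation response, also acts on sulfate transporter genes.

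OTU5 transcript was 0.811 ± 0.329 RPKM in otu5 low Pi and 1.36 ± 0.336 RPKM in otu5 control, against 39.9 ± 0.926 RPKM in WT low Pi and 40.9 ± 1.90 RPKM in WT control (SD, n = 3 each). It was lower in otu5 by a log2 difference of -4.98 on low Pi and of -4.49 on control medium (SE 0.18 each, limma adjusted p = 3.6e-07 and 1.1e-06). RPKM divides reads by gene length and by a measure of library size, so levels of different genes can be set side by side. Groups came from titles and source names, since for 6 of the 12 libraries the label for culture condition names the other medium. Roots are the tissue in the labels, although rosette leaves are what the text on RNA isolation gives. Summed levels of 4 endodermis markers (CASP1, CASP2, SCR and MYB36) lay between 151 and 219 RPKM over the 12 libraries and those of 4 root hair markers between 144 and 346 RPKM. Summed levels of 6 genes of green shoot tissue, such as RBCS1A and LHCB1.3, lay between 715 and 1404 RPKM, and no marker was at 0 in any library. Defining root genes were thus present in every library together with photosynthesis genes, whose part in the results below was not tested. Libraries summed to between 993382 and 1330830 RPKM, and the highest sum was in WT control replicate 3, where AT2G01021 alone had 317971 RPKM. Read counts are not given, so absolute depth is unknown, and the smallest values put relative depth at 0.671 to 1.

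All 10 transporters were detected in every library, across a wide span of levels. The order of mean levels in WT control was SULTR1;2, SULTR3;5, SULTR4;1, SULTR2;1, SULTR4;2, SULTR3;4, SULTR2;2, SULTR1;1, SULTR3;1 and SULTR1;3. At the top stood the main root uptake transporter with 75.3 ± 6.72 RPKM, and at the bottom the phloem transporter with 0.199 ± 0.0902 RPKM (SD, n = 3 each). In that group the library values of the fourth and the fifth gene overlapped, as did those of the seventh and the eighth, while the other neighbours in the order did not overlap. SULTR1;2 was the most abundant member in all 4 groups. In otu5 low Pi the order behind it was SULTR2;1, SULTR4;1, SULTR3;4, SULTR3;5, SULTR4;2, SULTR2;2, SULTR3;1, SULTR1;3 and SULTR1;1, with overlap between the second and the third, the fifth and the sixth, and among the last 3 genes. SULTR3;5 was thus the second in WT control but the fifth in otu5 low Pi, and SULTR1;1 was the eighth in WT control but last in otu5 low Pi.

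**Figure D1:**
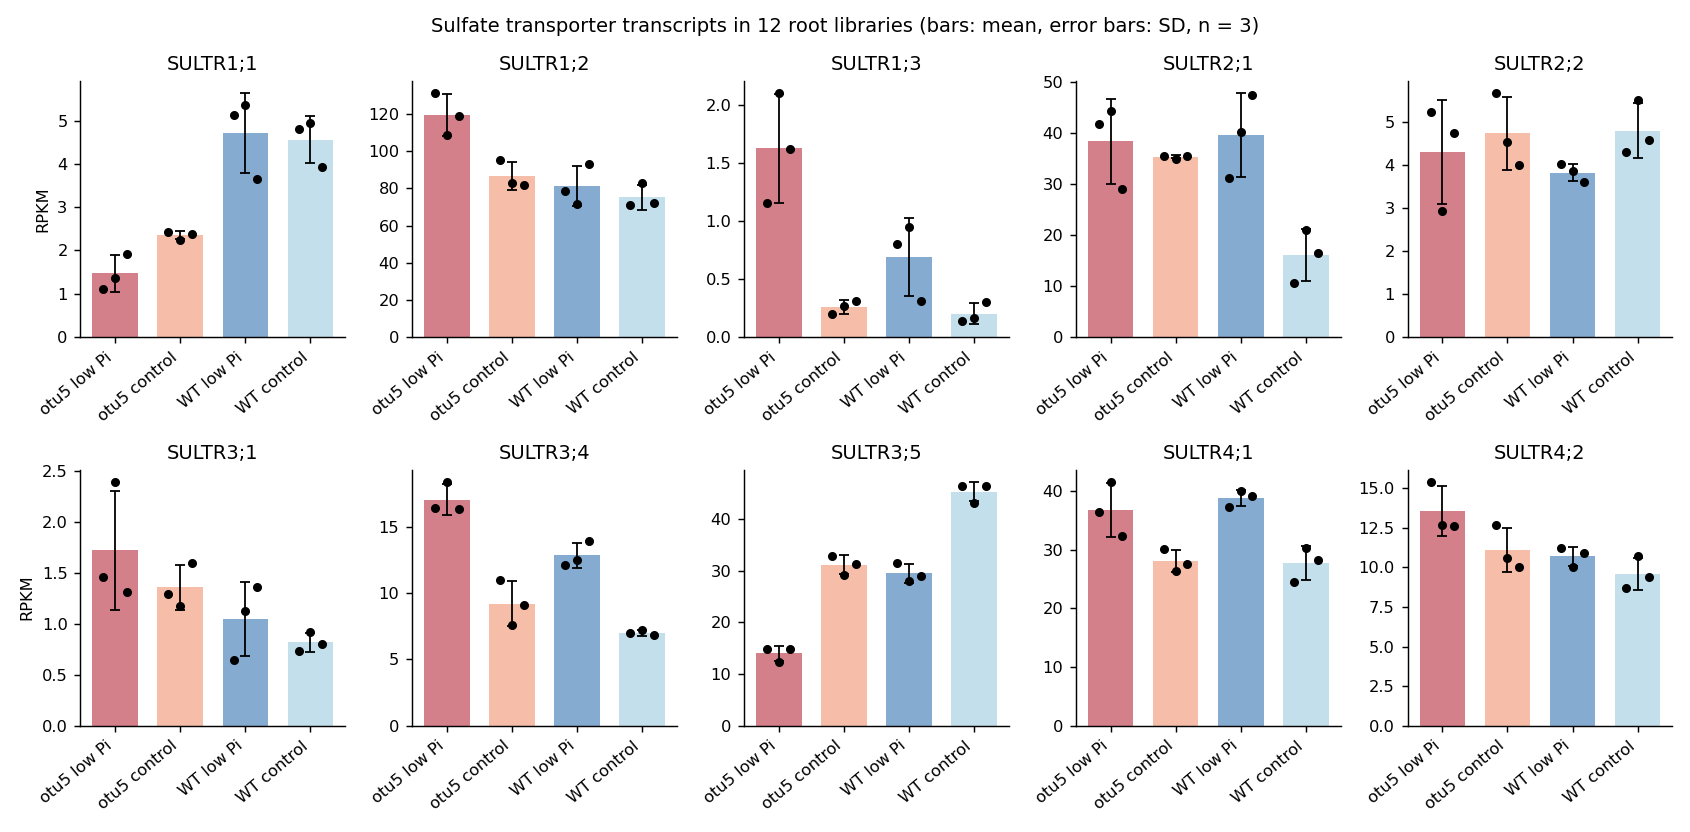
Level of each of the 10 sulfate transporter genes in RPKM (vertical axis, its own scale in each panel, from 0) in otu5 low Pi, otu5 control, WT low Pi and WT control, with points for the 3 libraries, bars for the mean and error bars for the SD. SULTR3;5 has 14.0 RPKM in otu5 low Pi and 45.3 RPKM in WT control, and SULTR1;3 has 1.63 RPKM in otu5 low Pi and under 1 RPKM in every library of the other groups.

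On low Pi, in both genotypes, several of these genes rose and 1 fell. Each gene was tested as log2(RPKM + 0.5) with limma across the 20411 genes that reached 1 RPKM in 3 or more of the 12 libraries, and a gene is said to have risen or fallen where the Benjamini-Hochberg adjusted p was under 0.05. Fold changes are on this log2 scale and come out too small where levels are low. In otu5, SULTR1;2, SULTR1;3, SULTR3;4 and SULTR4;1 rose on low Pi and SULTR3;5 fell, 4 and 1 of 10, where 4.81% of all tested genes rose and 3.78% fell (8.59% in either direction). In WT, SULTR2;1, SULTR3;4 and SULTR4;1 rose and SULTR3;5 fell, 3 and 1 of 10, where 2.55% of all tested genes rose and 1.74% fell (4.29% in either direction). The median log2 fold change over the 10 genes was 0.26 in otu5 and 0.18 in WT, beside -0.01 over all tested genes in each. With 1 library left out these counts were smaller in places, at 1 riser and 1 faller in otu5 without otu5 low Pi replicate 1 and 1 of each in WT without WT low Pi replicate 2 or 3 or without WT control replicate 3. In WT the replicate numbers may pair the libraries, which was not shown. A fit of the 6 WT libraries with the replicate number as a block, chosen after seeing the data, called 1696 of all genes. Without the block those libraries gave 816. The fit of all 12 libraries called 735 with the block and 875 without it. Each of these fits called 4 transporters. SULTR1;3 reached 1 RPKM only in the 3 otu5 low Pi libraries and so was tested only because of its high level there, and the counts above lean on that choice. Under a filter of 5 RPKM, which leaves it out with SULTR1;1 and SULTR3;1, 3 transporters rose and 1 fell in otu5.

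Between the genotypes some of these genes were higher in otu5 and some lower. On low Pi, SULTR1;2 and SULTR3;4 were higher in otu5 and SULTR1;1 and SULTR3;5 lower, 2 and 2 of 10, where 4% of all tested genes were higher and 5.91% lower (9.91% in either direction). On control medium, SULTR2;1 was higher in otu5 and SULTR1;1 and SULTR3;5 were lower, 1 and 2 of 10, where 4.85% of all tested genes were higher and 5.52% lower (10.4% in either direction). Without otu5 control replicate 3 the calls on control medium were 0 higher and 1 lower, and in a fit of the 2 low Pi groups alone those on low Pi were 0 higher and 2 lower. The median log2 difference over the 10 genes was 0.22 on low Pi and 0.16 on control medium, beside 0.01 and 0.00 over all tested genes. The comparisons share libraries, since each group enters 2 of them, so a high or low value in 1 group moves both.

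**Figure D2:**
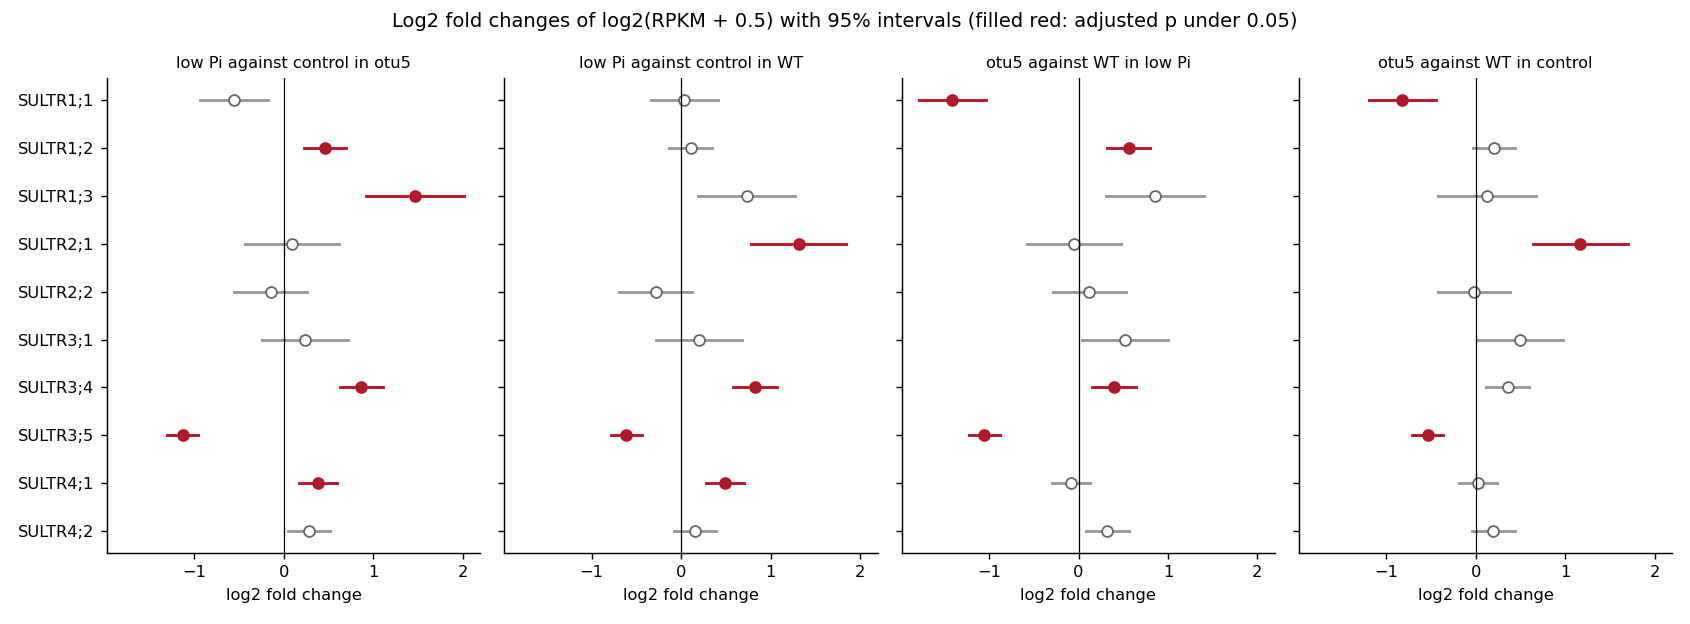
Log2 fold changes of log2(RPKM + 0.5) for the 10 sulfate transporters (horizontal axis, with 95% intervals) in the 4 comparisons, 1 panel each, with filled red points where the adjusted p is under 0.05. SULTR3;5 lies left of 0 in all 4 comparisons, from -0.54 to -1.13, and SULTR3;4 lies right of 0 in all 4.

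SULTR1;1 (AT4G08620) is a high-affinity transporter of the root epidermis and cortex that is known for its induction by sulfur shortage. It had 1.11, 1.37 and 1.93 RPKM in otu5 low Pi and 2.43, 2.25 and 2.38 RPKM in otu5 control. In WT it had 5.13, 5.37 and 3.66 RPKM on low Pi and 4.82, 4.95 and 3.94 RPKM on control medium. Every otu5 library was below every WT library, and the otu5 low Pi libraries were below all others. The level was lower in otu5 than in WT on low Pi, with a log2 difference of -1.41 (SE 0.17, limma adjusted p = 0.0014), and lower on control medium, with -0.82 (SE 0.17, limma adjusted p = 0.016). The difference on low Pi held in all 22 alternatives run, and that on control medium was lost in 3 of 22, without WT control replicate 1 (adjusted p = 0.052) and without otu5 control replicate 2 (0.056) or replicate 3 (0.055).
Low Pi gave no call for this gene in either genotype. In otu5 its libraries did not overlap between the media and the log2 fold change was -0.56 (95% interval -0.93 to -0.18, limma adjusted p = 0.068). In WT it was 0.03 (95% interval -0.34 to 0.41, limma adjusted p = 0.95), with overlapping libraries.

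SULTR1;2 (AT1G78000) is the main transporter for sulfate uptake by roots. Its levels were 131, 109 and 119 RPKM in otu5 low Pi, 95.6, 82.9 and 81.8 RPKM in otu5 control, 78.9, 71.7 and 93.3 RPKM in WT low Pi and 70.9, 83.0 and 71.9 RPKM in WT control. The 3 otu5 low Pi libraries were above all 9 others, and the remaining groups overlapped. The gene rose on low Pi in otu5 by a log2 fold change of 0.46 (SE 0.11, limma adjusted p = 0.028), and on low Pi it was higher in otu5 than in WT by 0.56 (SE 0.11, limma adjusted p = 0.011). For low Pi in WT the log2 fold change was 0.11 (95% interval -0.13 to 0.34), and for otu5 against WT on control medium 0.20 (95% interval -0.03 to 0.44). The rise in otu5 was lost without otu5 low Pi replicate 1 (adjusted p = 0.10) and without otu5 control replicate 2 (0.084) or replicate 3 (0.11), and the genotype difference in a fit of the 2 groups alone (0.057).

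The pair of root uptake genes therefore stood further apart in the mutant. The ratio of SULTR1;2 to SULTR1;1 had a lowest, median and highest value of 61.7, 79.4 and 119 in otu5 low Pi and of 34.4, 36.8 and 39.3 in otu5 control. In WT these were 13.4, 15.4 and 25.5 on low Pi and 14.7, 16.8 and 18.3 on control medium. The 6 otu5 libraries were all above the 6 WT libraries, and the media overlapped in WT but not in otu5. Root hair cells belong to the epidermis, where both genes act, and the summed level of 4 root hair markers was 144 to 175 RPKM in otu5 low Pi, 158 to 170 RPKM in otu5 control, 232 to 346 RPKM in WT low Pi and 163 to 183 RPKM in WT control. Of these 4 markers 2 rose on low Pi in WT, where 2.55% of all tested genes rose. On low Pi 2 were lower in otu5 than in WT, where 5.91% of all tested genes were lower. The part of these markers in the transporters' levels was not tested. In such whole-root samples, fewer cells of a type and less RNA per cell cannot be told apart.

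SULTR1;3 (AT1G22150) is the high-affinity transporter of phloem companion cells, and PHR1 is known to act on it when Pi is limiting. It had 1.15, 2.103 and 1.62 RPKM in otu5 low Pi and 0.198, 0.267 and 0.312 RPKM in otu5 control. In WT it had 0.805, 0.948 and 0.312 RPKM on low Pi and 0.133, 0.162 and 0.301 RPKM on control medium. The otu5 low Pi libraries were the highest of all, and WT low Pi replicate 3 lay close to the control libraries while its other 2 replicates lay above them. In otu5 the gene rose on low Pi by a log2 fold change of 1.46 (SE 0.25, limma adjusted p = 0.0069), and its mean RPKM was 6.28 times that in otu5 control. Without any filter on low levels the adjusted p was 0.0068, and the call held in all 19 alternatives in which the gene was tested. Leaving out any otu5 low Pi library, or filtering at 5 RPKM, dropped the gene below the filter and gave no value. The 19 therefore do not include the fits without 1 of its high libraries.
In WT the log2 fold change on low Pi was 0.73 (95% interval 0.19 to 1.28, limma adjusted p = 0.12), with no overlap between the media. Between the genotypes on low Pi it was 0.86 (95% interval 0.31 to 1.402, limma adjusted p = 0.052), also with no overlap, and this passed with a pseudocount of 1 (0.041), without a filter (0.045) and without trend and robust estimation (0.039). On control medium the genotypes overlapped, with a log2 difference of 0.12 (95% interval -0.42 to 0.67). The summed level of 4 companion cell markers (SUC2, APL, PP2-A1 and NaKR1) was 157 to 169 RPKM in otu5 low Pi, 159 to 188 RPKM in otu5 control, 125 to 172 RPKM in WT low Pi and 131 to 143 RPKM in WT control. None of the 4 markers rose or fell on low Pi in either genotype, while 2 were higher in otu5 than in WT on control medium, where 4.85% of all tested genes were higher. In otu5, SUC2 still lay at 23.6 to 24.3 RPKM on low Pi, above its 17.7 to 19.5 RPKM on control medium. The other 3 markers had lower means on low Pi there. The part of these markers in the transporter's level was not tested.

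SULTR2;1 (AT5G10180) is a low-affinity transporter of root and shoot vascular tissue, whose transcript is a known target of the microRNA miR395. Its levels in otu5 were 41.9, 44.4 and 28.9 RPKM on low Pi and 35.5, 35.0 and 35.6 RPKM on control medium. In WT they were 31.2, 40.3 and 47.5 RPKM on low Pi and 10.7, 20.9 and 16.4 RPKM on control medium. The 3 WT control libraries were below the 9 others, which overlapped. The gene rose on low Pi in WT by a log2 fold change of 1.31 (SE 0.24, limma adjusted p = 0.016), to a mean 2.48 times that in WT control. It was higher in otu5 than in WT on control medium by 1.17 (SE 0.24, limma adjusted p = 0.016), to a mean 2.21 times that in WT control. In otu5 low Pi it stood level with otu5 control, at a log2 fold change of 0.09 (95% interval -0.43 to 0.62), and on low Pi the genotypes differed by -0.05 (95% interval -0.58 to 0.48).
The rise in WT was lost without WT low Pi replicate 2 (adjusted p = 0.061) or replicate 3 (0.053) or without WT control replicate 3 (0.058), and the genotype difference without otu5 control replicate 2 (0.052) or replicate 3 (0.057). The summed level of 4 xylem markers was highest in WT control, where this gene was lowest. It was 141 to 168 RPKM in otu5 low Pi, 141 to 165 RPKM in otu5 control, 155 to 164 RPKM in WT low Pi and 184 to 222 RPKM in WT control. Of these markers 2 were lower in otu5 than in WT on control medium, where 5.52% of all tested genes were lower. The part of these markers in the result was not tested.

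SULTR2;2 (AT1G77990) is the second low-affinity transporter of group 2 and is known from the root phloem. Its values spanned 2.93 to 5.24 RPKM in otu5 low Pi, 4.01 to 5.68 RPKM in otu5 control, 3.61 to 4.02 RPKM in WT low Pi and 4.30 to 5.52 RPKM in WT control. It passed in no comparison. The WT low Pi libraries lay below the WT control libraries without overlap, at a log2 fold change of -0.29 (95% interval -0.69 to 0.12, limma adjusted p = 0.43). The other 3 comparisons had log2 values between -0.15 and 0.12. In the RefSeq gene table its locus overlaps that of the long non-coding RNA gene AT1G77992 over 16.9% of its length, and the sources used here do not say how reads were shared there.

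SULTR3;1 (AT3G51895) is known from the chloroplast envelope, where it takes sulfate into the organelle. It had 1.45, 2.39 and 1.31 RPKM in otu5 low Pi, 1.29, 1.17 and 1.596 RPKM in otu5 control, 0.647, 1.13 and 1.35 RPKM in WT low Pi and 0.735, 0.919 and 0.796 RPKM in WT control. The otu5 control libraries were above the WT control libraries without overlap, while low Pi and control overlapped in both genotypes. It passed in no comparison, and its largest log2 differences were between the genotypes, 0.52 on low Pi (95% interval 0.04 to 1.00, limma adjusted p = 0.16) and 0.49 on control medium (95% interval 0.01 to 0.97, limma adjusted p = 0.18). The summed level of the 6 green tissue genes was 942 to 963 RPKM in otu5 low Pi, 1308 to 1404 RPKM in otu5 control, 715 to 922 RPKM in WT low Pi and 940.2 to 1157 RPKM in WT control. Of these 6 genes, 3 were higher in otu5 than in WT on control medium and 2 on low Pi, where 4.85% and 4% of all tested genes were higher. On low Pi 5 fell in otu5 and 2 in WT, where 3.78% and 1.74% of all tested genes fell. None of the 6 was called the other way. Their part in this gene's level, and in the low Pi changes of the other transporters, was not tested.

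SULTR3;4 (AT3G15990), also called SPDT, is known for its part in the distribution of phosphorus between vascular tissues. It had 16.5, 18.4 and 16.4 RPKM in otu5 low Pi and 11.0, 7.59 and 9.10 RPKM in otu5 control. In WT it had 12.1, 12.5 and 13.9 RPKM on low Pi and 6.96, 7.26 and 6.84 RPKM on control medium. All 4 groups were apart from each other, with otu5 above WT on each medium and low Pi above control in each genotype. The gene rose on low Pi by a log2 fold change of 0.87 in otu5 (SE 0.11, limma adjusted p = 0.0021) and of 0.83 in WT (SE 0.11, limma adjusted p = 0.0029), and both calls held in every alternative run, 23 in otu5 and 24 in WT.
The difference between these changes was 0.04 (95% interval -0.30 to 0.38). On low Pi it was higher in otu5 than in WT by 0.40 (SE 0.11, limma adjusted p = 0.047), a call that held in only 9 of 23 alternatives, with adjusted p up to 0.15. It was lost with the replicate block (0.075), with equal sums (0.082), with no filter (0.060), without trend and robust estimation and in a fit of the 2 groups alone (0.056 each), and without any of the 3 otu5 low Pi libraries, the 3 WT control libraries, WT low Pi replicates 1 and 2 or otu5 control replicate 3. On control medium the log2 difference was 0.36 (95% interval 0.11 to 0.60, limma adjusted p = 0.065), and it passed without otu5 control replicate 2 (0.026) and with estimated library weights (0.0037). Its locus overlaps that of MFP1 over 3.58% of its length, and MFP1 had 8.70 ± 0.440, 9.71 ± 0.788, 7.61 ± 0.569 and 9.88 ± 0.735 RPKM in otu5 low Pi, otu5 control, WT low Pi and WT control (SD, n = 3 each), an order unlike that of the transporter.

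SULTR3;5 (AT5G19600) is known as a partner of SULTR2;1, with which it acts in the movement of sulfate towards the shoot. Its levels were 14.7, 12.3 and 14.9 RPKM in otu5 low Pi, 32.9, 29.2 and 31.3 RPKM in otu5 control, 31.5, 28.01 and 29.0 RPKM in WT low Pi and 46.4, 43.2 and 46.4 RPKM in WT control. The otu5 low Pi libraries were the lowest and the WT control libraries the highest, and otu5 control and WT low Pi overlapped between them. It was the only member called in all 4 comparisons. On low Pi it fell in otu5 by a log2 fold change of -1.13 (SE 0.08, limma adjusted p = 8.7e-05) and in WT by -0.61 (SE 0.08, limma adjusted p = 0.0025). In otu5 it was lower than in WT by -1.05 on low Pi (SE 0.08, limma adjusted p = 0.00015) and by -0.54 on control medium (SE 0.08, limma adjusted p = 0.0034). All 4 calls held in every alternative run, 24 for low Pi in WT and 23 for each of the others. Xylem and endodermis markers moved beside it in part. The 4 endodermis markers summed to 151 to 165 RPKM in otu5 low Pi, 169 to 201 RPKM in otu5 control, 174 to 209.8 RPKM in WT low Pi and 204 to 219 RPKM in WT control. On low Pi 1 of them was lower in otu5 than in WT, where 5.91% of all tested genes were lower, and none was called in the other comparisons. The largest part of the sum was CASP1, with means of 84.7 RPKM in otu5 low Pi and 129 RPKM in WT control. MYB36 went the other way, with 31.3 and 26.1 RPKM in these groups, and SCR hardly moved, with 17.1 and 18.4 RPKM. The part of the xylem and endodermis markers in the result was not tested.

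SULTR4;1 (AT5G13550) and SULTR4;2 (AT3G12520) sit in the vacuolar membrane and release stored sulfate. The first had 36.5, 41.6 and 32.4 RPKM in otu5 low Pi, 30.1, 26.4 and 27.6 RPKM in otu5 control, 37.4, 39.98 and 39.1 RPKM in WT low Pi and 24.6, 30.3 and 28.2 RPKM in WT control. Low Pi libraries were above control libraries in both genotypes, and the genotypes overlapped on each medium. It rose on low Pi by a log2 fold change of 0.38 in otu5 (SE 0.10, limma adjusted p = 0.035) and of 0.48 in WT (SE 0.10, limma adjusted p = 0.021). The genotypes differed by -0.08 on low Pi (95% interval -0.29 to 0.13) and by 0.02 on control medium (95% interval -0.19 to 0.23). The call in otu5 held in 17 of 23 alternatives, with adjusted p of 0.097 and 0.12 without otu5 low Pi replicates 1 and 2, 0.11 and 0.12 without otu5 control replicates 2 and 3, 0.054 without WT control replicate 3 and 0.085 in a fit of the 2 groups alone. The call in WT held in 20 of 24, with adjusted p of 0.076 and 0.058 without WT low Pi replicates 2 and 3 and of 0.071 and 0.072 without WT control replicates 1 and 3.
The second vacuolar gene had 15.4, 12.7 and 12.6 RPKM in otu5 low Pi, 12.7, 10.6 and 10.0 RPKM in otu5 control, 11.2, 10.0 and 10.9 RPKM in WT low Pi and 8.71, 10.7 and 9.42 RPKM in WT control. The otu5 low Pi libraries were above all WT libraries of both media, and the other pairs of groups overlapped. It passed in no comparison, and its log2 differences were 0.32 for otu5 against WT on low Pi (95% interval 0.08 to 0.56, limma adjusted p = 0.085) and 0.28 for low Pi in otu5 (95% interval 0.04 to 0.52, limma adjusted p = 0.14). Both passed with estimated library weights (adjusted p = 0.011 and 0.00079). The ratio of the first vacuolar gene to the second had medians of 2.57 in otu5 low Pi, 2.499 in otu5 control, 3.59 in WT low Pi and 2.83 in WT control, with the WT low Pi libraries above all others.

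**Figure D3:**
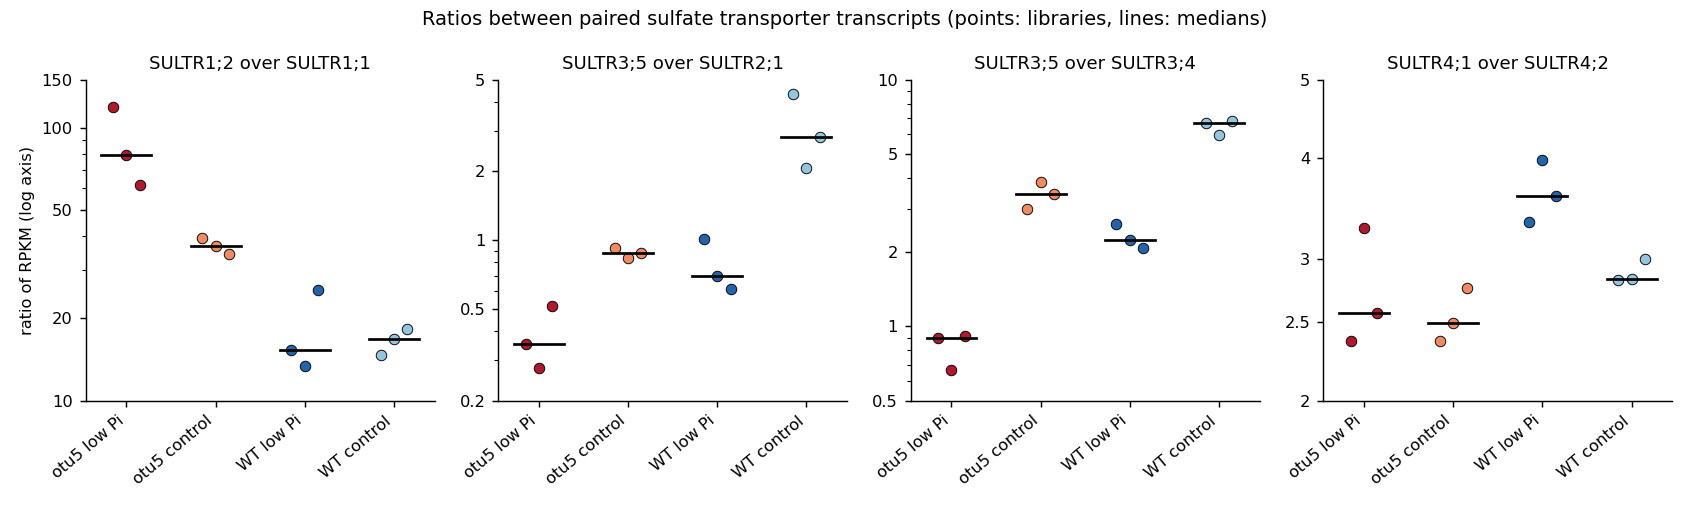
Ratios between pairs of sulfate transporters in each library (vertical axis, log scale, a ratio of RPKM values), by group, with points for the 3 libraries and a bar for the median. The ratio of SULTR3;5 to SULTR2;1 has medians of 0.352 in otu5 low Pi, 0.878 in otu5 control, 0.695 in WT low Pi and 2.82 in WT control.

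Within the family, the make-up of the summed transcript moved more than its size. The 10 genes together had 248.7 ± 15.9 RPKM in otu5 low Pi, 210.3 ± 14.8 RPKM in otu5 control, 223 ± 16.9 RPKM in WT low Pi and 191 ± 14.5 RPKM in WT control (SD, n = 3 each). SULTR1;2 made up 48.1% ± 3.60 of this sum in otu5 low Pi, 41.2% ± 0.956 in otu5 control, 36.3% ± 2.53 in WT low Pi and 39.3% ± 1.09 in WT control. The share of SULTR3;5 was 5.64% ± 0.698 in otu5 low Pi, 14.8% ± 0.460 in otu5 control, 13.3% ± 1.44 in WT low Pi and 23.8% ± 2.66 in WT control, and that of SULTR2;1 was 15.4% ± 2.81, 16.9% ± 1.08, 17.7% ± 2.66 and 8.27% ± 2.09 in the same groups. WT control was thus set apart by a large share of the first of these and a small share of the second, and otu5 low Pi by a large share of the main uptake gene. The ratio of SULTR3;5 to SULTR2;1 was 2.07 to 4.35 in WT control and 1.01 or less in the other 9 libraries. The ratio of SULTR3;5 to SULTR3;4 separated the 4 groups, with 0.668 to 0.910 in otu5 low Pi, 3.001 to 3.85 in otu5 control, 2.08 to 2.60 in WT low Pi and 5.95 to 6.78 in WT control. These shares and ratios are descriptions without a test, since they restate the same levels.

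**Figure D4:**
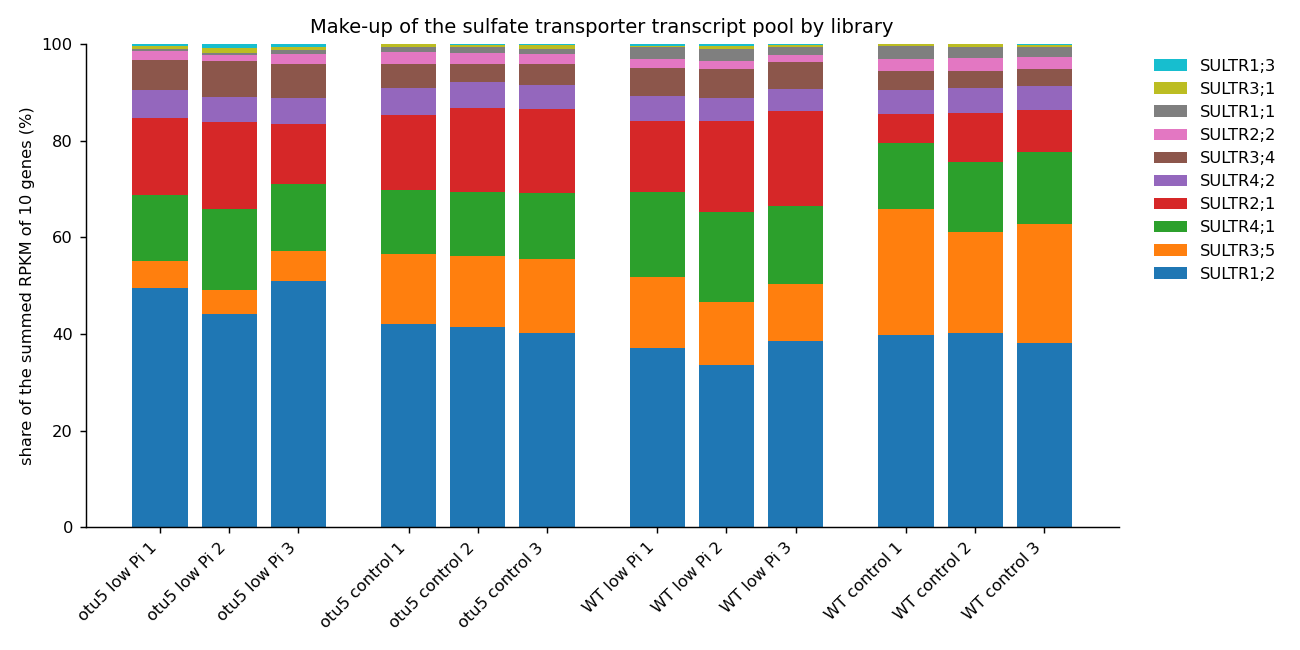
Make-up of the summed level of the 10 sulfate transporters (vertical axis, percent of the sum of RPKM) in each of the 12 libraries (horizontal axis, by group), with 1 colour for each gene. SULTR3;5 takes 5.64% on average in otu5 low Pi and 23.8% in WT control.

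The interaction asks whether the low Pi change differed between the genotypes, and no transporter passed it. Only 0.0049% of all tested genes did, 1 gene. At another threshold, an unadjusted p under 0.05 in limma, there were 4 of the 10 transporters. No share of all tested genes at that unadjusted threshold was worked out, here or for the gene lists below. For SULTR3;5 the low Pi change in otu5 was lower than in WT by 0.52 on the log2 scale (interaction -0.52, SE 0.11, 95% interval -0.76 to -0.27, limma adjusted p = 0.32). This passed only with estimated library weights, at -0.44 (limma adjusted p = 0.041). For SULTR2;1 the interaction was -1.22 (SE 0.34, 95% interval -1.97 to -0.47, limma adjusted p = 0.54), for SULTR1;1 it was -0.59 (95% interval -1.12 to -0.06) and for SULTR1;2 it was 0.35 (95% interval 0.02 to 0.69, limma adjusted p = 0.89 for both). A call in 1 genotype and none in the other is therefore not shown to be a difference between them for any of these genes.

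The other genes of sulfate use give the setting of the transporters. Of the 12 genes of sulfate activation and reduction, 1 rose on low Pi in otu5 and 0 fell, and 1 rose in WT and 0 fell, where 4.81% of all tested genes rose in otu5 and 2.55% in WT. With a list of this size, 1 call is near that background. The riser in otu5 was APK2, an APS kinase that feeds sulfation reactions, at 85.9 ± 14.2 RPKM in otu5 low Pi and 62.0 ± 1.72 RPKM in otu5 control (log2 fold change 0.45, SE 0.11, limma adjusted p = 0.027). The riser in WT was APS1, an ATP sulfurylase, at 353 ± 22.0 RPKM in WT low Pi and 265 ± 18.03 RPKM in WT control (log2 fold change 0.41, SE 0.09, limma adjusted p = 0.033).
Against WT, 0 of these 12 were higher in otu5 and 3 were lower on each medium, where 5.91% of all tested genes were lower on low Pi and 5.52% on control medium. With 1 library left out 2 to 5 of the 12 were called on low Pi and 1 to 4 on control medium. APS4, another ATP sulfurylase, had 255 ± 7.78 RPKM in otu5 low Pi and 389 ± 36.7 RPKM in WT low Pi (log2 difference -0.60, SE 0.07, limma adjusted p = 0.0012). On control medium it had 296 ± 14.97 RPKM in otu5 and 432 ± 14.1 RPKM in WT (-0.54, SE 0.07, limma adjusted p = 0.0020). APK1 was lower on both media, by -0.49 on low Pi and -0.37 on control medium (limma adjusted p = 0.0079 and 0.025), APS1 on low Pi by -0.38 (0.027) and APK2 on control medium by -0.51 (0.016).
The APS reductases APR1, APR2 and APR3 and the sulfite reductase SIR passed in no comparison. Of the 12 genes, 5 had an unadjusted p under 0.05 in limma on low Pi in otu5 and 7 in WT, again without a share of all tested genes. Over the alternatives run, APS4 on both media and APK1 on low Pi kept their calls in all 23. The other calls were lost in 4 to 6 of 23 or 24, each with at least 1 of the libraries compared left out. With a library left out, limma adjusted p was up to 0.093 for the rise of APK2 and 0.11 for that of APS1. Between the genotypes the largest came with all libraries scaled to equal sums, 0.15 for APS1 on low Pi and 0.21 for APK1 on control medium.

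Of 10 genes of cysteine and glutathione synthesis, 9 were tested, and the same 2 rose on low Pi in each genotype while 0 fell, where 4.81% of all tested genes rose in otu5 and 2.55% in WT. They encode serine acetyltransferases, which make the carbon backbone of cysteine. SERAT2;1 had 77.6 ± 17.1 RPKM in otu5 low Pi and 36.7 ± 4.48 RPKM in otu5 control (log2 fold change 1.05, SE 0.15, limma adjusted p = 0.0033), against 68.5 ± 6.29 RPKM in WT low Pi and 43.7 ± 2.62 RPKM in WT control (0.64, SE 0.15, limma adjusted p = 0.040). SERAT2;2 rose by 0.45 in otu5 (SE 0.07, limma adjusted p = 0.0045) and by 0.47 in WT (SE 0.07, limma adjusted p = 0.0052). Both rises in otu5 and that of SERAT2;2 in WT held in all alternatives run, and that of SERAT2;1 in WT in 12 of 24, with adjusted p up to 0.13. No gene of this list passed between the genotypes on either medium, where 1 of 9 on low Pi and 0 of 9 on control medium had an unadjusted p under 0.05 in limma.

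Of 9 genes known to rise in sulfur shortage, 8 were tested. On low Pi 4 rose and 0 fell in otu5, and 1 rose and 0 fell in WT, where 4.81% of all tested genes rose in otu5 and 2.55% in WT. With 1 library left out, 1 to 6 of the 8 were called in otu5 and 0 to 2 in WT. The median log2 fold change over the 8 was 0.76 in otu5 and 0.41 in WT, beside -0.01 over all tested genes in each. In otu5 these were LSU1, LSU2 and LSU4 of the low-sulfur response family, with log2 fold changes of 1.04, 0.97 and 0.98 (limma adjusted p = 0.038, 0.019 and 0.0070), and SHM7 with 0.30 (limma adjusted p = 0.036). In WT it was LSU4, at 38.5 ± 9.47 RPKM in WT low Pi and 23.2 ± 1.76 RPKM in WT control (log2 fold change 0.69, SE 0.16, limma adjusted p = 0.043). The replicate block in the WT libraries alone, chosen after seeing the data, lost this call (limma adjusted p = 0.12). The planned replicate block over all 12 libraries kept it. LSU4 in otu5 kept its call in all 23 alternatives, LSU2 in 18, SHM7 in 15 and LSU1 in 13 of them, and LSU4 in WT in 11 of 24, with adjusted p up to 0.14 among the losses. No gene of the list passed between the genotypes or for the interaction.
The regulators SLIM1, PHR1, PHL1 and HY5 passed in no comparison, with 1 of the 4 at an unadjusted p under 0.05 in limma for low Pi in WT, 0 for low Pi in otu5 and 1 for otu5 against WT on each medium. Of 4 further family members, MOT1 and MOT2 were tested, and the molybdate transporter MOT1 was lower in otu5 than in WT on low Pi, at 7.35 ± 0.402 against 9.56 ± 0.229 RPKM, and on control medium, at 8.17 ± 1.09 against 10.6 ± 0.591 RPKM (limma adjusted p = 0.030 and 0.027). These calls held in 17 and 16 of 23 alternatives. With all libraries scaled to equal sums the limma adjusted p was 0.20 and 0.25. SULTR3;2 and SULTR3;3 stayed below the filter, with group means under 1 RPKM.

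**Figure D5:**
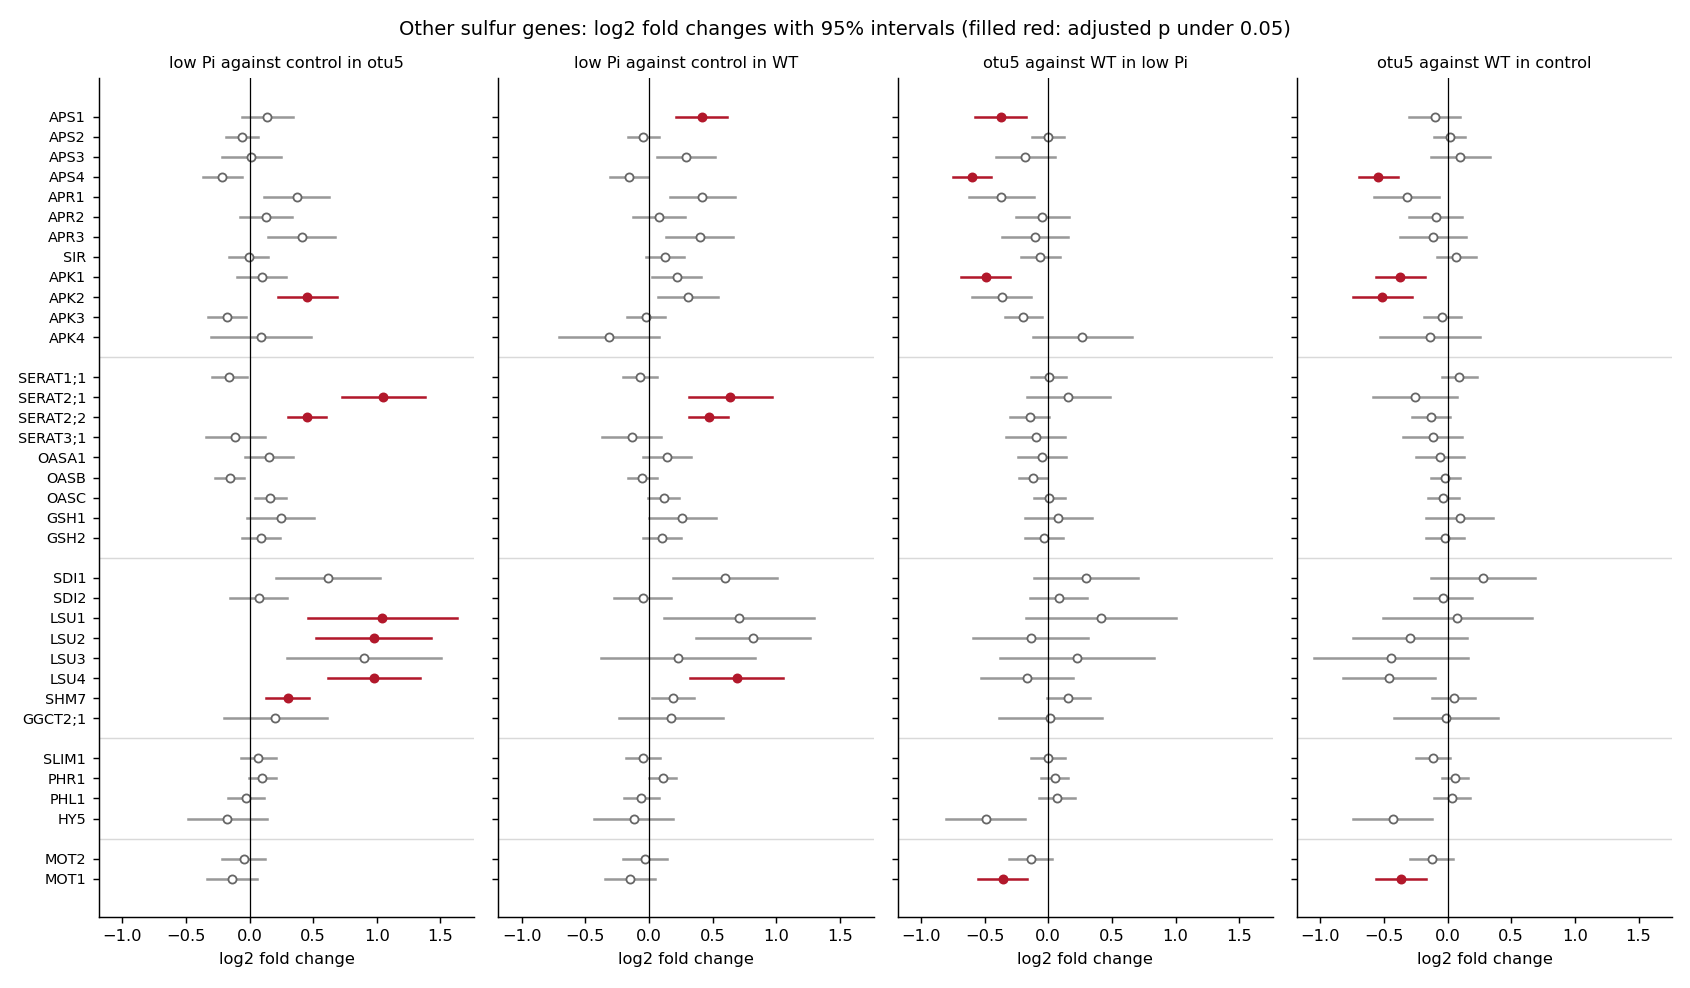
Log2 fold changes of log2(RPKM + 0.5), with 95% intervals (horizontal axis), for tested genes of sulfate activation and reduction, cysteine and glutathione synthesis, sulfur deficiency markers, regulators and other SULTR family members in the 4 comparisons, filled red where the adjusted p is under 0.05. Low Pi calls lie right of 0, and calls between otu5 and WT lie left of 0.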

How the data were processed

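The authors deposited 1 table of RPKM values for the 12 RNA libraries. Per the submitters' processing notes, TAIR10, TopHat2 2.0.4 and Cuffdiff were used, in roles that are not stated. The sources used here do not say how libraries were scaled, whether strand counted or how overlapping genes shared reads. Size factors from median ratios between libraries were 0.999 to 1.001 for the deposited values, so these were already near that scale. The 8 methylation and 16 chromatin samples were not analysed here. Names came from a RefSeq gene table (TAIR10.1, 32810 identifiers matched).

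Values were used as deposited, as log2(RPKM + 0.5), in 1 limma 3.58.1 fit (R 4.3.3) of 4 group means with trend and robust estimation, 8 residual degrees of freedom and adjustment over all 20411 genes tested. 13146 genes under the filter were left out. The fit was tested on simulated data. No count test was run, since RPKM are not counts.

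Deviations of libraries with the same replicate number correlated at 0.204, 0.259 and 0.114 between the media in WT, where libraries with different numbers were at -0.0203 or below. In otu5, and between genotypes, at least 1 pair with the same number was not above 0.1. The numbers may thus pair the WT libraries. Libraries with different numbers, however, reached 0.254 between genotypes (otu5 low Pi replicate 3 and WT low Pi replicate 1). Between the media in otu5 they reached 0.179 (otu5 low Pi replicate 2 and otu5 control replicate 1). Deviations were from the mean of a group's 3 libraries, so higher values for some pairs force lower ones for others. Pairing was thus not shown. Named genes are the 10 transporters, called members of the 5 pathway lists (at most 4 a list by size), OTU5, and for each called transporter the 3 tested genes with the smallest root mean square difference of centred log2 values over 12 libraries. The sulfite reductase, the APS reductases and the regulators are named without values. The members and lists were chosen with earlier results of these data known. Alternatives were other pseudocounts, filters, scalings, limma settings, library weights, 2-group fits, replicate blocks and each library left out. The median-ratio scaling among them could hardly change a result, since the size factors were so near to 1, and it adds little to the counts of calls that held.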

Additional observations from a re-analysis of the deposited data

How the results depend on the processing

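Of the transporters' values under settings other than leaving out a library, 511 of 535 kept their direction and their side of the threshold, 7 lost a call, 9 gained one and 8 changed sign. With 1 library left out, 532 of 585 did, 29 lost a call, 3 gained one and 21 changed sign, none of the sign changes being a call. The calls lost or gained are given with each gene above, apart from SULTR1;1 for low Pi in otu5, which passed with estimated library weights (adjusted p = 0.0012) and without WT low Pi replicate 3 (0.047) or otu5 low Pi replicate 3 (0.019), and SULTR3;1 for otu5 against WT on control medium, which passed with library weights (0.0089). Sign changes under library weights gave SULTR2;1 0.05 for otu5 against WT on low Pi, SULTR2;2 0.20 and SULTR3;1 -0.0033 for low Pi in otu5, SULTR3;1 -0.21 for the interaction and SULTR4;1 -0.0017 for otu5 against WT on control medium. Scaling all libraries to equal sums gave SULTR2;2 0.061 for otu5 against WT on control medium and SULTR3;4 -0.0086 for the interaction, and quantile normalization gave SULTR1;3 -0.16 for otu5 against WT on control medium. With libraries left out in turn, log2 values that changed sign ranged from -0.061 to 0.19 for SULTR1;1 on low Pi in WT, from -0.022 to 0.28 for SULTR2;1 on low Pi in otu5 and from -0.21 to 0.14 for it between genotypes on low Pi. For SULTR2;2 they ranged from -0.0046 to 0.37 (interaction), -0.29 to 0.080 (low Pi in otu5), -0.15 to 0.080 (genotypes, control) and -0.026 to 0.34 (genotypes, low Pi), for the interaction of SULTR3;1 from -0.17 to 0.18 and of SULTR3;4 from -0.085 to 0.17, and for SULTR4;1 from -0.062 to 0.087 between genotypes on control medium and from -0.17 to 0.0063 on low Pi. The filter of 5 RPKM left out SULTR1;1, SULTR1;3 and SULTR3;1. The cause was not tested.

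Transporters called, 4 on low Pi in WT, 5 on low Pi in otu5, 4 between genotypes on low Pi, 3 on control medium and 0 for the interaction, numbered 2 to 4, 2 to 6, 3 to 4, 1 to 3 and 0 to 0 with 1 library left out. Library weights called 5 between genotypes on control medium and 1 for the interaction, and a fit of the 2 groups alone called 2 between genotypes on low Pi. Calls over all genes moved more. With libraries left out they ranged from 240 to 1346 on low Pi in WT, 503 to 2483 in otu5, 824 to 2254 between genotypes on low Pi, 703 to 2250 on control medium and 0 to 17 for the interaction. Library weights gave 2005, 7631, 4382, 6795 and 147 in the same order, and fits of 2 groups gave 855 on low Pi in otu5 and 502 between genotypes on low Pi. The interaction had 2 genes without a filter, 2 without trend and robust estimation, 0 with equal sums and 0 with the replicate block. Equal sums moved the median of all genes by 0.12 on low Pi in WT, by 0.07 on low Pi in otu5, by 0.04 between genotypes on low Pi and by 0.09 on control medium. It gave 753 higher and 95 lower on low Pi in WT (520 and 355 as deposited), 1032 in all on low Pi in otu5 (833 and 199, against 982 and 772), 673 between genotypes on low Pi (302 and 371, against 817 and 1206) and 600 on control medium (455 and 145, against 990 and 1127).

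The replicate block in WT only, chosen after seeing the data, gave 1696 genes on low Pi in WT (735 with the block over all 12 libraries), and among the transporters it and the block over all 12 libraries changed no call but SULTR3;4 between genotypes on low Pi. The labels give only a replicate number, in WT as in otu5. Counts of the pathway lists kept within 1.5 times in 238 of 275 values under other settings and in 246 of 300 with a library left out. Calls of named pathway genes were lost in 22 of 235 and 65 of 252, and SERAT2;2 and APS4 lost none. Absolute depth is unknown, so differences of the lowest genes, SULTR1;3 and SULTR3;1, carry no counting interval.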

Other observations

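Genes whose pattern over the 12 libraries lay nearest to that of a called transporter were found from log2(RPKM + 0.5), centred on each gene's mean, by the root mean square (RMS) difference. They describe likeness only, over libraries that share the same 4 groups. Nearest to SULTR1;3, whose SD over the libraries was 0.67 on this scale, was SQD1 (RMS 0.28), which makes the sulfur-bearing sugar nucleotide of sulfolipid synthesis and had mean levels of 41.0 RPKM in otu5 low Pi, 19.1 RPKM in otu5 control, 34.6 RPKM in WT low Pi and 14.6 RPKM in WT control. SULTR1;3 itself had means of 1.63, 0.259, 0.688 and 0.199 RPKM in the same groups. At such levels the added 0.5 shrinks its changes, so it was less like SQD1 in RPKM than on this scale. Next nearest to it on this scale were CYP705A3 (RMS 0.30) and PYD4 (RMS 0.30). Nearest to SULTR3;5, with an SD of 0.61, was GLYI4 (RMS 0.14), named for the glyoxalase I family, at 66.5 RPKM in otu5 low Pi, 137 RPKM in otu5 control, 134 RPKM in WT low Pi and 233 RPKM in WT control, and then AT5G52790 (RMS 0.14) and OFP3 (RMS 0.16).

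For SULTR3;4 the nearest genes were BLH2, CYP89A5 and AT1G69480, with RMS differences of 0.13, 0.14 and 0.15 beside an SD of 0.48. SULTR1;2 was nearest to AT3G42180 (0.10), the ADP/ATP carrier gene AAC3 (0.11) and another member of the family, SULTR4;2 (0.12), beside an SD of 0.28. SULTR1;1 was nearest to AT3G46370 (0.20), AT3G46340 (0.21) and RAB7A (0.21), beside an SD of 0.62, and SULTR2;1 to AT5G38940 (0.23), AT3G10986 (0.24) and AT2G47950 (0.27), beside an SD of 0.60. For SULTR4;1 they were AT1G22440, AT4G39955 and AT4G26470, each at 0.07, beside an SD of 0.24.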
